A study of Homo sapiens with 2 samples.

Results

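The kinetochore is the protein assembly that joins each chromosome to the mitotic spindle. The 37 genes described here encode its parts, the spindle checkpoint that watches over it and the passenger complex that corrects its attachments. They were chosen by gene symbol, by a rule that uses no measured value, although earlier results of these data were known. All 37 were found among the 57820 gene identifiers of the deposited table, and all 37 passed the filter on low values, a mean of at least 1 CPM over both libraries. The cells were HCT116, an established line from a human colorectal carcinoma, with 1 RNA library from the CREB1 wild-type line and 1 from a CREB1 knockout clone derived from it. CREB1 encodes a transcription factor that recognises cAMP response elements (CREs) in DNA. Per the labels' protocols, the knockout cells descend from a lone cell that had received nickase Cas9 and guide RNAs against CREB1. The same DMEM medium with serum and antibiotics was used for both, and no drug treatment is named. The question was how gene expression differs between the 2 genotypes.

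Kinetochores are built on nucleosomes that carry CENPA, a variant of histone H3 that marks the centromere. A constitutive inner layer of CENP proteins sits on these nucleosomes, and an outer layer of the KNL1, MIS12 and NDC80 complexes grips microtubules. Checkpoint proteins on unattached kinetochores delay anaphase by holding back CDC20, the activator of the anaphase-promoting complex. Many of these genes are transcribed mainly in G2 and mitosis. In dividing cells their promoters are known for the cell cycle genes homology region (CHR), to which the MuvB core of the DREAM complex binds, and for CCAAT boxes, which bind NF-Y.

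Expected counts totalled 34511074 for the wild-type library and 31178309 for the knockout library. With 1 library per genotype there is no spread between replicates and no test, and the knockout is 1 clone, so genotype, clone, culture and library cannot be told apart. Levels are given as CPM, counts scaled to the library total and by the TMM method, and the log2 ratio is knockout over wild-type. Each interval is an exact (Clopper-Pearson) 95% interval that covers counting error only. CREB1 itself had 614 wild-type and 499 knockout counts (18.2 and 15.6 CPM, log2 ratio -0.23), and a gene-level count does not check for small insertions or deletions. Of 8 markers of colorectal epithelium, 6 were expressed, and these 6 summed to 4017 and 3520 CPM. VIL1 and LGALS4 were at or under 0.357 CPM in both libraries. Marker lists of other cell types were low: 4 fibroblast markers were under 0.149 CPM and the fifth, COL1A1, was at 2.47 and 2.78 CPM. The leukocyte and endothelial lists summed to at most 0.743 CPM in either library. PECAM1 had no matched identifier, so the endothelial sum covers 3 of the 4 genes listed.

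Promoter windows from RefSeq (build GRCh38.p14, 250 bases before to 50 bases after the start site) were matched for 31 of the 37 members. Windows of 6 are shown. CENPE, CENPW and NDC80 are the members whose window holds a full CRE, the element that CREB1 binds. AURKB and CENPT had the lowest and highest log2 ratios of all members, and CENPA is the histone that defines the centromere. Capitals mark matches, on either strand, to the full CRE (TGACGTCA), the CHR (TTTGAA) and its variant TTCGAA, E2F elements (TTCCCGC and TTTGGCG) and the CCAAT box (CCAAT).

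CENPE promoter (chr4:103198294-103198593, minus strand): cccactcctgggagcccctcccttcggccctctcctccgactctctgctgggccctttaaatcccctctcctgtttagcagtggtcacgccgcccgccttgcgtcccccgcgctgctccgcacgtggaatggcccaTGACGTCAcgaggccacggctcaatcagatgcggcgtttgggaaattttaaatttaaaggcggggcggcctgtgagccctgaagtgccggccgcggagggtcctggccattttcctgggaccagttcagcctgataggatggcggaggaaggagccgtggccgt
CENPW promoter (chr6:126339865-126340164, plus strand): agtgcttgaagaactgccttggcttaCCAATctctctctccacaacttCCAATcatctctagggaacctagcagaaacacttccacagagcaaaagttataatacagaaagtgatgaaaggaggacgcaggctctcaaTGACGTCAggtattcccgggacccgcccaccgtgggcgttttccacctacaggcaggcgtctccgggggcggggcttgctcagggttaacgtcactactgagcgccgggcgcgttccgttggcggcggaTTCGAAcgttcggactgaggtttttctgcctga
NDC80 promoter (chr18:2571307-2571606, plus strand): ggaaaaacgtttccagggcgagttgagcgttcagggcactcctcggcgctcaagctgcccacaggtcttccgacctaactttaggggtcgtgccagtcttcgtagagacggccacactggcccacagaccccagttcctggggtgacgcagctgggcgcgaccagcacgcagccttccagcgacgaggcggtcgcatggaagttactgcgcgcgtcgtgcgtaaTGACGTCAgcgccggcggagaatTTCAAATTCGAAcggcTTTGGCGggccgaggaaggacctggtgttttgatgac
AURKB promoter (chr17:8210176-8210475, minus strand): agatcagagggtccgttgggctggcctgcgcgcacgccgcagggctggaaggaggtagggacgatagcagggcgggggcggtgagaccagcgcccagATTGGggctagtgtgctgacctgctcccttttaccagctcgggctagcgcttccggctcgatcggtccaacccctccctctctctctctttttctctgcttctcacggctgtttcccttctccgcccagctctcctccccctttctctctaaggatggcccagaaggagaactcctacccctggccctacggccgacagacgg
CENPT promoter (chr16:67847644-67847943, minus strand): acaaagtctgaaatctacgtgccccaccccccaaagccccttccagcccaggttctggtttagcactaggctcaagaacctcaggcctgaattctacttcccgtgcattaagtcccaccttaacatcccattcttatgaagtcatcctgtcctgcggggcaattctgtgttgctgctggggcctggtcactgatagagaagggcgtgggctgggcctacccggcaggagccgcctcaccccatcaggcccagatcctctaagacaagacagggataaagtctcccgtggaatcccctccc
CENPA promoter (chr2:26785806-26786105, plus strand): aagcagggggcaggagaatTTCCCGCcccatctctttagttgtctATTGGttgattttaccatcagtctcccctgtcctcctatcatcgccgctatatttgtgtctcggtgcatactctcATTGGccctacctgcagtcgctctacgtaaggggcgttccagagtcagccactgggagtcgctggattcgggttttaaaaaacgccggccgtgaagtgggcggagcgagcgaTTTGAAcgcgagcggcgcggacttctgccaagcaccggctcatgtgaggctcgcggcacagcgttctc

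The CRE began 114 bases before the start site in CENPE, 112 bases before it in CENPW and 26 bases before it in NDC80. In NDC80 a CHR on the reverse strand began 3 bases before the start site. In CENPA a CHR began 18 bases before the start site, and the reverse-strand CCAAT boxes lay at 205 and 130 bases before it. The AURKB window shown, the first of 2 listed for that gene, held a reverse-strand CCAAT box 153 bases before the start, and the CENPT window held none of the marked elements. Over the 31 members with a window, 3 (9.68%) held a full CRE, against 475 of 15843 protein-coding genes with a window. The CHR was found in 15 members (48.4%) and in 15.8% of protein-coding genes, and the CCAAT box in 20 members (64.5%) and in 42.1%. The variant TTCGAA was found in 3 members (9.68%) against 2.11%, TTCCCGC in 5 (16.1%) against 10.5% and TTTGGCG in 1 (3.23%) against 3.01%. The CRE core TGACG, which is part of the full CRE and is not capitalised on its own, was found in 12 members (38.7%) and in 34.6% of protein-coding genes. A match is a run of letters and does not show that a factor binds there.

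The 3 members with a full CRE had TMM-scaled intervals that included no difference. CENPE, a kinesin motor that carries chromosomes to the spindle equator, was at 16.9 CPM with wild-type CREB1 and 16.7 CPM in the knockout clone (log2 ratio -0.02, interval -0.20 to 0.15). NDC80, the microtubule-binding subunit that names its complex, was at 23.5 and 21.6 CPM (-0.12, interval -0.27 to 0.03). CENPW, a histone-fold partner of CENPT, was at 7.76 and 8.88 CPM (0.19, interval -0.05 to 0.44), and with total-count scaling its interval, 0.02 to 0.52, excluded no difference. Among 362 expressed protein-coding genes with a full CRE in the window the median log2 ratio was -0.05, with 208 below 0. Among 8899 without it the median was 0.01, with 4282 below 0. The member median was -0.02 with a full CRE (3 genes, 2 below 0), which is the value of CENPE alone. With a window but no full CRE it was -0.08 (28 genes, 17 below 0). Members with a CHR had a median log2 ratio of -0.06 (15 genes, from -0.44 to 0.41), and members with a window but no CHR had -0.08 (16 genes, from -0.60 to 0.59). Over expressed protein-coding genes the medians were 0.04 with a CHR and 0.007 without it. For the CRE core TGACG the member medians were -0.13 with it (12 genes, 9 below 0) and -0.02 without it (19 genes, 10 below 0). Expressed protein-coding genes had medians of -0.01 with TGACG (1963 of 3824 below 0) and 0.02 without it (2527 of 5437 below 0). For TTCCCGC the member medians were -0.16 with it (5 genes, 4 below 0) and -0.06 without it (26 genes, 15 below 0). Over expressed protein-coding genes they were 0.008 with TTCCCGC (593 of 1225 below 0) and 0.01 without it (3897 of 8036 below 0). For the CCAAT box the member medians were -0.11 with it (20 genes) and -0.06 without it (11 genes). Of expressed protein-coding genes, 2010 of 4021 with a CCAAT box and 2480 of 5240 without it lay below 0. These splits are descriptions, and no difference between groups with and without a motif was tested.

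Summed over all 37 genes, kinetochore and checkpoint transcripts took nearly the same TMM-scaled level in both libraries. Their counts came to 41289 (wild-type) and 38978 (knockout), and the log2 ratio of the scaled sums was -0.01 (interval -0.03 to 0.01), a sum in which BUB3 and CENPF weigh most. With total-count scaling the same sum was higher in the knockout library, at 0.06 (interval 0.04 to 0.08), or 0.125% against 0.120% of all counts. Their median log2 ratio was -0.06, where that of 12886 expressed genes was 0.01. Of the 37, 31 (83.8%) differed by less than 1.25-fold, against 68.9% of expressed genes and 73.1% of 9920 protein-coding genes in the same range of mean CPM. This was not particular to the members. In the 7 other lists of mitosis and replication genes described below, the share ran from 80% to 91.7%. Below 0 lay 23 members and above it 14, where 48.8% of expressed genes lay below 0. With total-count scaling, which raises the median of expressed genes by 0.07, 17 members lay below 0 and their median was 0.02. The members' median minus that of all expressed genes was -0.064 under both scalings. In bulk RNA, a difference in the share of cells in G2 and mitosis cannot be told apart from a difference in RNA per cell. No member reached a 2-fold difference, which 1.64% of expressed genes did downward and 1.28% upward.

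**Figure D1:**
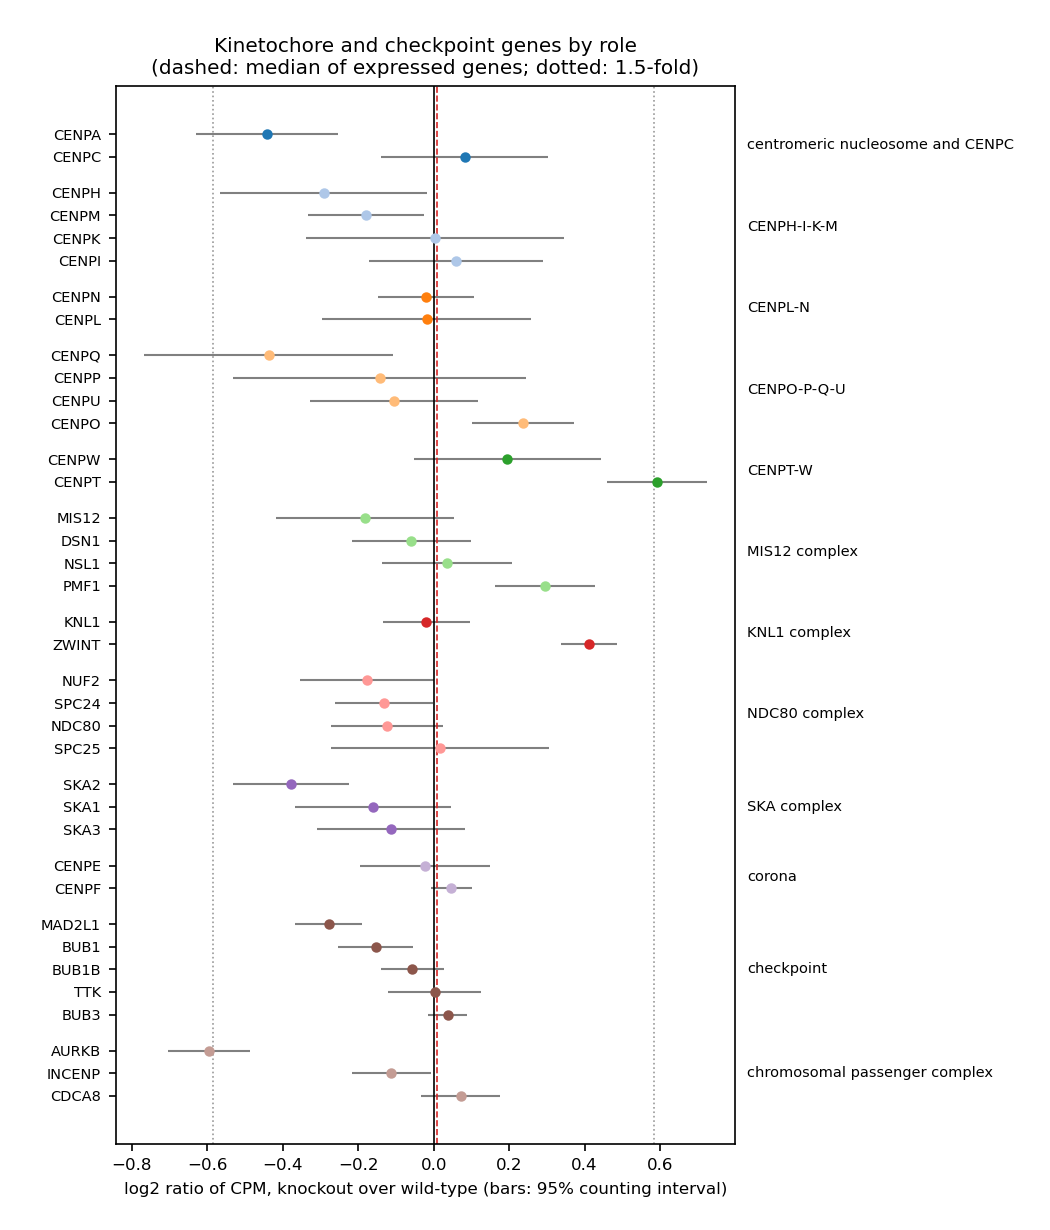
Log2 ratio of CPM, knockout over wild-type, for each of the 37 members, grouped by role; points are single values from 1 library per genotype and bars are 95% counting intervals. AURKB lies at the left at -0.60 and CENPT at the right at 0.59, and 23 of the 37 bars cross 0.

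The interval excluded no difference for 14 members. It lay below for 10 (27.0%), namely AURKB, CENPA, CENPQ, SKA2, CENPH, MAD2L1, CENPM, BUB1, SPC24 and INCENP, against a background of 25.5% of expressed genes. It lay above for 4 (10.8%), namely CENPT, ZWINT, PMF1 and CENPO, against 26.4%. In the 9920 protein-coding genes of the same CPM range the interval lay below for 2577 and above for 2853 (28.8%). The share below was thus near the background, and the share above was smaller than it; with 1 library per genotype that difference was not tested. At least 1.5-fold lower was 1 member, AURKB, against 5.50% of expressed genes, and at least 1.5-fold higher was 1 member, CENPT, against 5.25%. Both sat at the threshold, since 1.5-fold is 0.58 on the log2 scale. AURKB was at -0.52 with total-count scaling and CENPT at 0.57 with DESeq2 size factors, which ends the call in each case. After a correction for GC content and transcript length AURKB was at -0.50, also short of 1.5-fold. With total-count scaling the interval lay below 0 for 5 members (AURKB, CENPA, CENPQ, SKA2 and MAD2L1) and above it for 8, the 4 above joined by CENPW, CENPF, BUB3 and CDCA8. The shares of expressed genes given here are for TMM scaling and are no background for these counts, since total-count scaling also shifts the other genes upward.

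**Figure D2:**
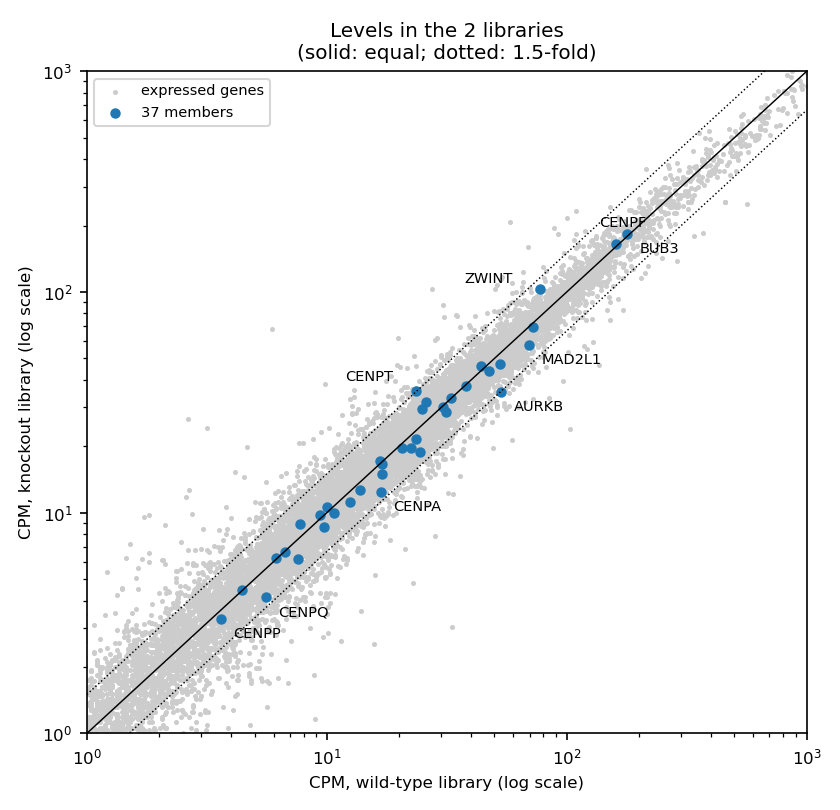
CPM in the wild-type library (x axis) against CPM in the knockout library (y axis), both on log scales from 1 to 1000 CPM, for expressed genes (grey) and the 37 members (blue), with lines at equal levels and at 1.5-fold. The members follow the line of equal levels from CENPP at 3.63 and 3.28 CPM to BUB3 at 178 and 182 CPM, with AURKB and CENPT on the dotted lines.

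CENPA (ENSG00000115163.10, chromosome 2), the centromeric histone, had 566 wild-type and 396 knockout counts, or 16.8 and 12.4 CPM. It was 1.36-fold lower (log2 ratio -0.44, interval -0.63 to -0.25), and 19.2% of expressed genes differed at least as much. CENPC, which binds CENPA nucleosomes and links them to the outer kinetochore, was at 10.0 and 10.6 CPM (log2 ratio 0.08, interval -0.14 to 0.30). The CENPC to CENPA count ratio was therefore 1.44-fold higher in the knockout library (interval 1.17 to 1.76), a value that no scaling between libraries can alter.

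CENPH, CENPI, CENPK and CENPM form a subcomplex of the inner layer that helps recruit new CENPA. CENPH was at 7.58 CPM in the wild-type and 6.19 CPM in the knockout library (log2 ratio -0.29, interval -0.57 to -0.02). CENPM was at 22.3 and 19.7 CPM (-0.18, interval -0.33 to -0.03). After a correction for GC content and transcript length the CENPM value was -0.06. Its 50 nearest expressed protein-coding genes on chromosome 22 had a median of -0.12, with 34 below 0, and their part in its value was not tested. CENPI was at 9.33 and 9.73 CPM and CENPK at 4.43 and 4.44 CPM, with intervals that included no difference. The CENPI to CENPH ratio differed by 1.28-fold with an interval of 0.993 to 1.64 that included no difference. CENPL and CENPN, the pair that reads the CENPA nucleosome together with CENPC, had the smallest contrast between partners. CENPL was at 6.72 and 6.63 CPM and CENPN at 30.6 and 30.1 CPM, and their count ratio changed by 1.0-fold (interval 0.810 to 1.24).

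CENPO, CENPP, CENPQ and CENPU make up a further inner subcomplex, through which CENPU binds the mitotic kinase PLK1. CENPQ was lower in the knockout library, with 188 and 132 counts (5.59 and 4.13 CPM, log2 ratio -0.44, interval -0.77 to -0.11). CENPO was higher, with 843 and 944 counts (25.1 and 29.5 CPM, log2 ratio 0.24, interval 0.10 to 0.37). The ratio of CENPO to CENPQ was thus 1.59-fold higher in the knockout library (interval 1.24 to 2.05). CENPU was at 10.7 and 9.94 CPM and CENPP at 3.63 and 3.28 CPM, with intervals that included no difference. In GENCODE release 29, 22.9% of the exon bases of CENPO lie opposite exons of ADCY3 and 30.2% of those of CENPP opposite exons of IPPK. The next largest such overlaps were 17.3% for CENPU, opposite PRIMPOL, and 14.5% for CENPN, opposite CMC2. The libraries were strand-specific, but whether the counting used strand is not stated in the labels. Reads of these neighbours could therefore enter any of the 4 values.

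CENPT, which recruits NDC80 complexes to the centromere independently of CENPC, had the highest ratio of all members. CENPT (ENSG00000102901.8, chromosome 16) had 792 wild-type and 1134 knockout counts, or 23.5 and 35.5 CPM. It was 1.51-fold higher (log2 ratio 0.59, interval 0.46 to 0.72), and 10.8% of expressed genes differed at least as much. Its partner CENPW shifted less, so that the CENPT to CENPW ratio was 1.32-fold higher (interval 1.08 to 1.60). The 50 nearest expressed protein-coding genes on chromosome 16 had a median of 0.08, with 18 of them below 0.

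In the outer kinetochore, ZWINT and PMF1 were higher in the knockout library, and their partners KNL1, MIS12, DSN1 and NSL1 were not separated from no difference by counting error. ZWINT, a partner of KNL1 that helps place the checkpoint motor adaptor RZZ at kinetochores, had 2599 wild-type and 3287 knockout counts, or 77.2 and 103 CPM. It was 1.33-fold higher (log2 ratio 0.41, interval 0.34 to 0.49). KNL1, the scaffold that BUB proteins dock on, was at 37.9 and 37.4 CPM (-0.02, interval -0.14 to 0.09), and the ZWINT to KNL1 ratio was 1.35-fold higher (interval 1.23 to 1.48). In the MIS12 complex, which bridges the inner and outer layers, PMF1 was 1.23-fold higher, with 870 and 1014 expected counts (25.9 and 31.7 CPM, log2 ratio 0.29, interval 0.16 to 0.43). PMF1 shares 49.2% of its exon bases with the readthrough gene PMF1-BGLAP on the same strand and had fractional counts, so its value depends on how RSEM divided the reads. MIS12 was at 9.72 and 8.57 CPM, DSN1 at 20.5 and 19.7 CPM and NSL1 at 16.7 and 17.1 CPM. The PMF1 to MIS12 ratio was 1.39-fold higher in the knockout library (interval 1.15 to 1.68).

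In the NDC80 complex, which holds microtubules directly, the TMM-scaled interval excluded no difference for SPC24 alone, and by a small margin. SPC24, whose product anchors the complex to the inner kinetochore together with SPC25, was at 31.3 CPM in the wild-type and 28.6 CPM in the knockout library (log2 ratio -0.13, interval -0.26 to -0.002). NUF2, the dimer partner of NDC80, had 570 wild-type and 479 knockout counts (log2 ratio -0.18, interval -0.36 to 0.0004). The NUF2 interval excluded no difference with DESeq2 size factors (-0.38 to -0.02) and upper-quartile scaling (-0.37 to -0.01). With total-count scaling the intervals of SPC24 (-0.19 to 0.07) and NUF2 (-0.28 to 0.07) both included it. SPC25 was at 6.15 and 6.22 CPM (0.02, interval -0.27 to 0.30). Between its extremes, SPC25 and NUF2, the count ratio changed by 1.14-fold with an interval of 0.903 to 1.45 that included no difference.

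All 3 genes of the SKA complex, which helps kinetochores follow shrinking microtubules, lay below 0 under each scaling tried. SKA2 (chromosome 17) had 827 wild-type and 605 knockout counts, or 24.6 and 18.9 CPM, a log2 ratio of -0.38 (interval -0.53 to -0.22). SKA1 was at 12.5 and 11.2 CPM (-0.16) and SKA3 at 13.7 and 12.7 CPM (-0.11), with intervals that included no difference. The SKA3 to SKA2 ratio was 1.2-fold higher in the knockout library (interval 1.01 to 1.43). The 50 nearest expressed protein-coding genes around SKA2 had a median of -0.01, with 25 below 0. The large corona protein CENPF, known as a marker of G2 and mitosis, was at 160 and 165 CPM (0.05, interval -0.01 to 0.10), and the CENPF to CENPE ratio changed by 1.05-fold (interval 0.925 to 1.19).

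Among the checkpoint genes, MAD2L1 differed most. Its product, MAD2, binds CDC20 to hold back anaphase. MAD2L1 had 2336 wild-type and 1830 knockout counts, or 69.4 and 57.2 CPM, and was 1.21-fold lower (log2 ratio -0.28, interval -0.37 to -0.19). BUB1, a kinase that marks the centromere for the passenger complex, was at 52.8 and 47.4 CPM (-0.15, interval -0.25 to -0.05). The other checkpoint genes had intervals that included no difference. BUB1B, which encodes the checkpoint protein BUBR1, was at 72.1 and 69.4 CPM. BUB3, which tethers both BUB proteins to KNL1, was at 178 and 182 CPM, and the checkpoint kinase gene TTK was at 33.0 CPM in each library. The BUB3 to MAD2L1 ratio was 1.24-fold higher in the knockout library (interval 1.16 to 1.34). BUB1B had fractional counts, and 4.57% of its exon bases are shared with the readthrough gene BUB1B-PAK6.

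The chromosomal passenger complex held the lowest member. AURKB (ENSG00000178999.8, chromosome 17), the kinase that releases faulty attachments, had 1791 wild-type and 1126 knockout counts, or 53.2 and 35.2 CPM. It was 1.51-fold lower (log2 ratio -0.60, interval -0.70 to -0.49), and 10.6% of expressed genes differed at least as much. After a correction for GC content and transcript length the value was -0.50. INCENP, the scaffold that activates the kinase, was at 47.3 and 43.7 CPM (-0.11, interval -0.22 to -0.01). CDCA8, which encodes the subunit borealin, was at 43.8 and 46.0 CPM (0.07, interval -0.03 to 0.18). The CDCA8 to AURKB ratio was 1.59-fold higher in the knockout library (interval 1.43 to 1.76). The 50 nearest expressed protein-coding genes around AURKB had a median of -0.14, the lowest such value for any member, with 29 below 0; the part of this in the value of AURKB was not tested. Over all members these neighbour medians ran from -0.14 to 0.13.

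Within the 12 roles, the ratio of the highest to the lowest member changed between the libraries by more than counting error in 8. These pairs were picked as the extremes of each role, which widens the contrast, so they describe the spread within complexes and test nothing.

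Levels between genes were compared per kilobase of exon, with exon lengths from GENCODE release 29. The values ran from 0.370 CPM per kb for CENPP to 40.4 for AURKB in the wild-type library, and from 0.335 for CENPP to 49.8 for ZWINT in the knockout library. ZWINT followed AURKB in the wild-type library at 37.4 CPM per kb, and in the knockout library AURKB was second at 26.8, so these neighbours changed places. PMF1 was next to AURKB in the knockout library at 26.6 CPM per kb. BUB3 lay at 22.7 and 23.3 CPM per kb, BUB1B at 19.1 and 18.4 and CDCA8 at 17.7 and 18.6. Within the inner layer, CENPM was highest at 16.4 CPM per kb in the wild-type library, and CENPT was highest in the knockout library at 14.9, where CENPM was at 14.5. CENPC at 1.44 and 1.53, CENPK at 1.75 and 1.76 and CENPE at 1.97 and 1.93 CPM per kb were the lowest after CENPP. The order of the members was much the same in both libraries, with Pearson's r of 0.987 between their log2 levels per kb, given as a description over 37 genes that share the same 2 libraries. The annotated exons of CENPP are long for its read count, and the transcript set behind the authors' counting is not stated in the labels, so its length-scaled level is uncertain.

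**Figure D3:**
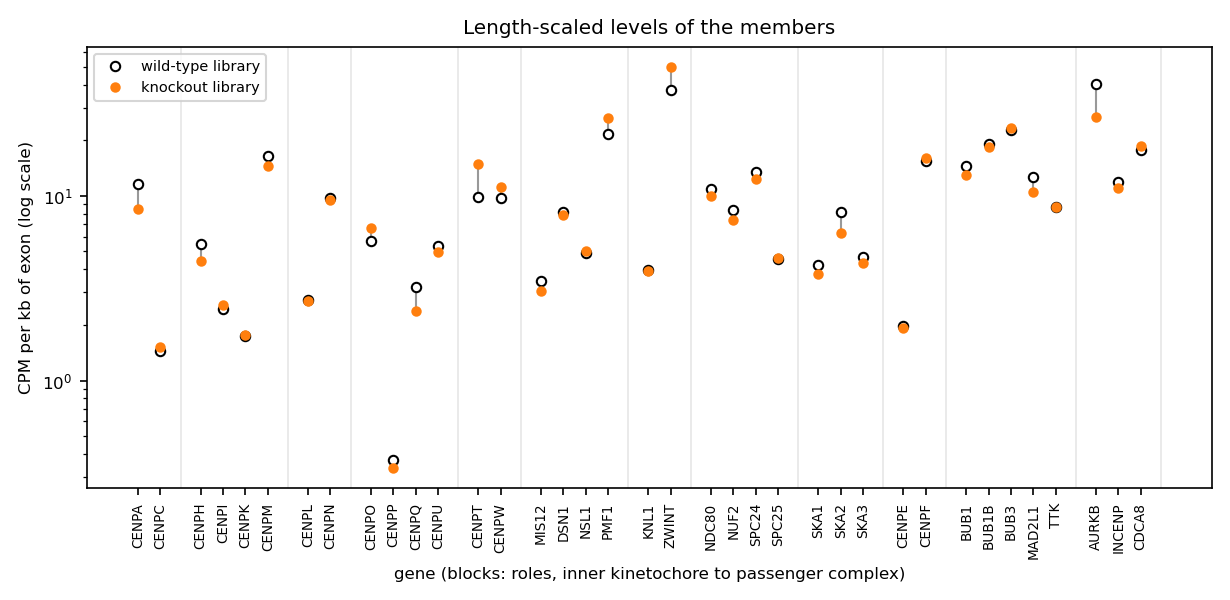
CPM per kilobase of exon on a log axis for each member in the wild-type library (open circles) and the knockout library (filled circles), ordered by role from the inner kinetochore to the passenger complex. ZWINT and AURKB are highest, CENPP is lowest at 0.370 and 0.335, and the 2 circles of most members nearly coincide.

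Other genes of mitosis and replication were counted from 7 lists. Of 8 other centromere genes 4 were below 0, and their median log2 ratio was 0.002. The exception in size was CENPX, a histone-fold partner of CENPS, with 4090 wild-type and 1770 knockout counts (122 and 55.4 CPM). It was 2.20-fold lower (log2 ratio -1.13, interval -1.22 to -1.05), whereas CENPS was at 0.22 (interval -0.04 to 0.47). CENPX lies on chromosome 17, where its 48 nearest expressed protein-coding neighbours had a median of -0.52 and 46 of them were below 0. Also in this list were OIP5, a part of the machinery that loads CENPA, at -0.28 and ITGB3BP, which encodes CENPR, at -0.13. Of 13 further checkpoint and corona genes, 8 lay below 0, with a median of -0.05. The lowest was BIRC5, which encodes survivin, the passenger subunit that brings AURKB to centromeres, at 147 and 83.1 CPM (-0.82, interval -0.89 to -0.75). Its 50 neighbours on chromosome 17 had a median of -0.30, with 31 below 0. The RZZ subunit gene ZWILCH was at -0.38, the MAD2 remodeller gene TRIP13 at -0.23 and the cohesin protector gene SGO1 at 0.24.

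In the anaphase-promoting complex and separase list, 10 of 20 lay below 0 and the median was -0.02. Its lowest gene was ANAPC11, the catalytic RING subunit, at 54.7 and 31.5 CPM (-0.80, interval -0.91 to -0.69), and 45 of its 50 neighbours on chromosome 17 lay below 0, with a median of -0.51. For CENPX, BIRC5 and ANAPC11 the part of the surrounding chromosome region in the value was not tested. The ubiquitin-conjugating enzyme gene UBE2S was at -0.44, the securin gene PTTG1 at -0.38 and FBXO5, which encodes the inhibitor EMI1, at 0.31. Among cohesin and condensin genes 11 of 20 lay below 0, with a median of -0.01. NCAPD3, a condensin II subunit, was 1.88-fold lower (55.7 and 29.6 CPM, interval -1.03 to -0.80 on the log2 scale). In that list the cohesin loader gene NIPBL was at 0.55, the cohesin subunit gene SMC3 at -0.42 and the cohesin regulator gene PDS5B at 0.39.

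Spindle motors and assembly factors had a median of -0.08, with 14 of 24 below 0. Farthest from 0 were TACC3 (0.45) and NUMA1 (0.37), both proteins of the spindle, CLASP2 (-0.27), which stabilises microtubules, and PRC1 (-0.24), which bundles them at the midzone. Regulators of G2 and mitosis, with the DREAM genes, had a median of 0.03 and 9 of 20 below 0. CDK1, the kinase that drives mitosis, was at -0.37, the retinoblastoma-family genes RBL1 and RBL2 were at 0.34 and -0.31, and TFDP1, the dimer partner of E2F factors, was at -0.29. DNA replication and licensing genes, which are transcribed earlier in the cell cycle, had a median of 0.003 with 20 of 46 below 0. TIMELESS (0.54), RPA1 (0.48), POLE (0.35) and LIG1 (0.33) were farthest from 0 there. The members' median of -0.06 lay within the range of these lists, from -0.08 to 0.03, and none of the differences between lists was tested.

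**Figure D4:**
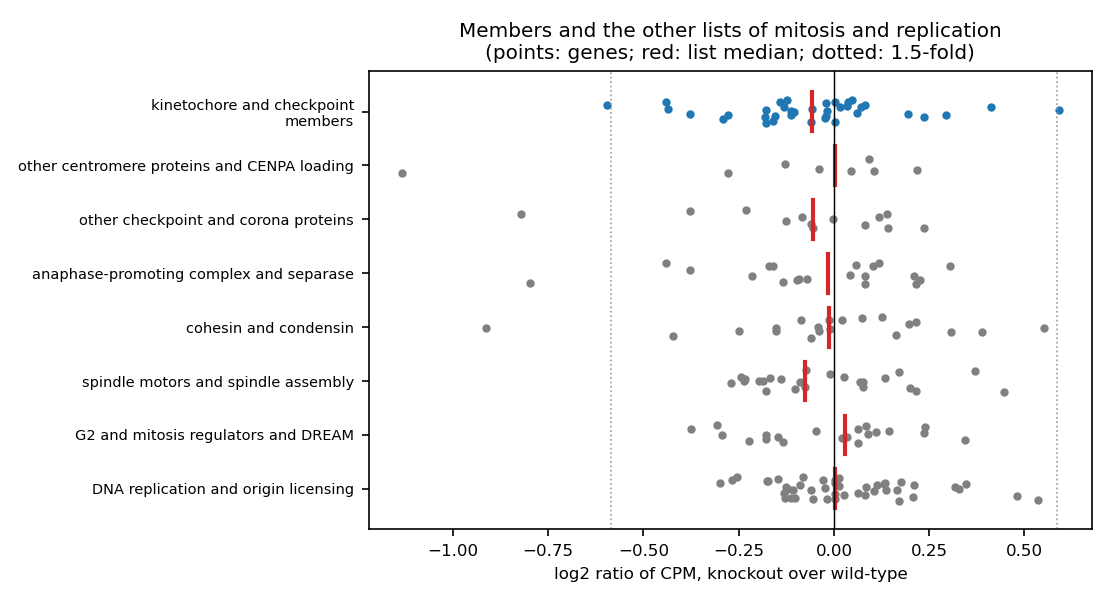
Log2 ratio of CPM, knockout over wild-type, for each expressed gene of the 37 members (blue) and of 7 other lists (grey), with the median of each list in red and dotted lines at 1.5-fold. The medians lie between -0.08 and 0.03, and CENPX at -1.13 is the point farthest to the left.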

How the data were processed

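RNA was measured in 1 wild-type and 1 CREB1 knockout library of HCT116 cells. Per the labels' protocols, total RNA was depleted of ribosomal RNA and made into strand-specific libraries. The deposited values are expected counts per gene, which are estimates that need not be whole and that the authors had not scaled between libraries. The submitters' processing notes name the tools cutadapt 2.0, STAR 2.4.2a and RSEM 1.2.26 and the build hg19. No label states the annotation release, the strand setting or a filter. RSEM divides reads that fit several genes among them.

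Identifiers were matched without versions to GENCODE release 29, and 52338 of 57820 (90.5%) had a name; unmatched identifiers stayed in the library totals. Expected counts were rounded and scaled by TMM in edgeR 4.0.16 (R 4.3.3), with log2 ratios at a prior count of 0.5. Expressed means a mean CPM of at least 1, and a call needs a 1.5-fold difference and an interval that excludes no difference. The intervals treat read pairs as independent molecules. The code was tested on simulated data. All members are named, and up to 4 expressed genes of each other list with the largest absolute log2 ratios. Members, lists and tests were chosen with earlier results of these data known. The neighbour medians, the within-role ratios and the medians by promoter motif were added after the data had been seen. Alternatives were total-count, DESeq2 1.42.0, upper-quartile and protein-coding scaling, other filters, a prior count of 2, whole counts alone, and a GC and length correction by mgcv 1.9.3.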

Additional observations from a re-analysis of the deposited data

How the results depend on the processing

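The members' median log2 ratio of -0.06 was 0.0166 with total-count scaling and -0.077 with DESeq2 size factors, and stayed between -0.07 and -0.04 under the other settings. The number of members below 0, 23 as reported, ran from 17 to 26. With total-count scaling, 5 members rather than 10 had an interval below 0, 8 rather than 4 had one above it, and 0 rather than 1 were called 1.5-fold lower. The matching shares of expressed genes are given for TMM scaling only. With DESeq2 size factors and with upper-quartile scaling, 0 rather than 1 were called 1.5-fold higher. After the GC and length correction, for which no intervals were computed, AURKB was at -0.50, short of 1.5-fold. No member whose interval excluded no difference changed sign under any scaling, prior count or the GC and length correction. Of the members whose interval included it, 6 changed sign with total-count scaling, 4 with the GC and length correction, 3 with DESeq2 size factors and 2 with upper-quartile scaling. The scaling moves every member by about the same amount, so it leaves the contrasts between partners alone. The GC and length correction does not, and it moved some partners closer together and others apart. It took CENPA from -0.44 to -0.34 and CENPC from 0.08 to 0.04. ZWINT went from 0.41 to 0.47 and KNL1 from -0.02 to -0.10. With 1 library per genotype, leaving out a replicate was not possible. No paired analysis was possible because there is 1 library per genotype. Depth limits CENPP, CENPK and CENPQ most, with the lowest counts.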
